A study of Homo sapiens with 8 samples.

Results

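The mRNAs of the mitochondrial ribosomal proteins are described here, as measured by RIP-chip in A431 cells. Members were all genes with a symbol made of MRPL or MRPS and a number, with or without a letter, and without pseudogenes. Of 77 such genes in RefSeq, all 77 had a probe on the array by accession and 76 had a probe well above background on all 8 arrays, of 10956 genes measured in that way. These were 49 genes of the large subunit and 27 of the small subunit by symbol. MRPS25, the remaining gene, was well above background on 7 of 8 arrays and was not analyzed further.

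A431 is a human cutaneous squamous cell carcinoma line. Cells received miR-NC, a control miRNA, or miR-634 at 10 nM and were lysed 24 h later. RNA bound to AGO2, the Argonaute protein that holds a miRNA on its target mRNA, was taken by immunoprecipitation (RIP), and total RNA served as the input. Input and RIP of either kind of cell (miR-NC or miR-634) were hybridized on 2 one-color arrays each, which gives 4 groups and 8 arrays. All groups were the same line without any other stated treatment, and the miRNA came from outside the cell, which limits the groups as a model of the cell's own miR-634. The input arrays carry a normal rabbit IgG antibody in the sample labels, whereas the methods of the study call them total RNA, and they are treated as input here. Nothing states that the 2 arrays of a group came from separate cultures, so p-values measure only the spread between these arrays, which may be technical.

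Mitochondria hold their own ribosome, which makes the core proteins of the respiratory chain encoded by mitochondrial DNA. Its RNA is encoded there too, but all of its proteins are encoded in the nucleus, made in the cytosol and imported, so their mRNAs are open to cytosolic miRNAs. Some of these proteins descend from proteins of the bacterial ribosome, and the others exist only in mitochondria.

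miR-634 is shown because its seed, the part that pairs with target mRNAs, is the agent that differed between the groups. The sequence is the mature miRNA of RefSeq (GRCh38.p14, chr17:66787132-66787153, plus strand, within the PRKCA gene), with seed bases 2 to 8 in capitals.
miR-634: aACCAGCAccccaacuuuggac
An mRNA that pairs with all of the seed holds the letters UGCUGGU. Transcripts were not used here, so which members hold them was not tested.

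The scale of all values below is log2 array signal minus the 75th percentile of the same array, taken over the 16805 probes well above background on all arrays. RIP/input is the RIP level minus the input level on this scale, and its change is how far the value in miR-634 cells lay above (positive) or below (negative) that in miR-NC cells. A difference was called when limma, with Benjamini-Hochberg adjustment over 10956 genes, gave an adjusted p below 0.05. All 8 squamous carcinoma markers checked were well above background on every array, and none of 8 markers of other cell types was. Spots well above background made up between 45.6% and 45.8% of the input arrays, 33.6% and 34.5% of those of miR-NC RIP and 40.0% of each miR-634 RIP array, and the part of this difference in the results was not tested. Replicate arrays correlated at r between 0.9957 and 0.9988 over all genes. Precision is limited throughout by having 2 arrays per group.

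Directions are relative to the other mRNAs on the array, and 1 choice bears on them. Scaled to 7 spike-in probes in place of the percentile, the median change of RIP/input over all genes moved from -0.22 to 0.87, a shift of 1.09. With that scaling, 29 of the 37 members called lower for the change turned positive, and none of the 28 called higher turned negative. The other 8 falls (MRPS14, MRPS17, MRPL54, MRPL13, MRPL16, MRPS9, MRPS23 and MRPL34) and the 28 rises kept their sign under all 7 scalings tried, and of these falls MRPS14, MRPS17 and MRPL54 were also called under spike-in scaling. RIP/input itself shifted by -2.53 in miR-NC cells and by -1.44 in miR-634 cells, and 22 of 23 members called higher in miR-NC cells and 24 of 30 in miR-634 cells turned negative. The input arrays of miR-634 differed from each other in mean spike-in signal, at 13.48 and 13.74 on the log2 scale.

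In miR-NC cells, the mRNAs of this ribosome lay on both sides of the input, with more below it than above it. RIP/input was called higher for 23 of 76 members, against 33.6% of all genes, and lower for 43, against 45.3% of all genes. Its median was -0.33 over members and -0.12 over all genes. The spread across members, an SD of 0.86, was close to the 0.87 across all genes.

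MRPL20, which binds ribosomal RNA early in the assembly of the large subunit, had the highest RIP/input. Its level was 2.52 on both miR-NC input arrays, and 5.51 and 5.54 on miR-NC RIP, a RIP/input of 3.01 ± 0.05 (SE of the limma fit, n = 2 arrays per group, adjusted p = 1.45e-07). It was the only member called higher in miR-NC cells whose RIP/input stayed above 0 under spike-in scaling. MRPS14, a protein of the head of the small subunit, followed with 2.15, and MRPS23, which has no bacterial counterpart, with 1.78. MRPL53, MRPL47 and MRPS18C had the lowest values, at -1.64, -1.64 and -1.63. MRPL53 and MRPS18C were uneven between the miR-NC RIP arrays, at 0.53 and -0.16 and at 0.18 and 1.06, whereas MRPL47, which lies at the exit of the protein tunnel, was at 1.09 and 1.06.

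In miR-634 cells, the members lay farther apart. The SD of RIP/input across members was 1.20, against 1.12 across all genes. RIP/input was called higher for 30 members (36.1% of all genes were called so) and lower for 43 (48.3% of all genes), with a median of -0.43 over members and -0.17 over all genes. MRPL45, which ties the ribosome to the inner membrane at the tunnel exit, had the highest value, 2.70. MRPL20 and MRPL23 followed with 2.40 and 2.18. The lowest were MRPL50 at -2.34, MRPL47 at -2.27 and MRPL13 at -1.95.

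**Figure D1:**
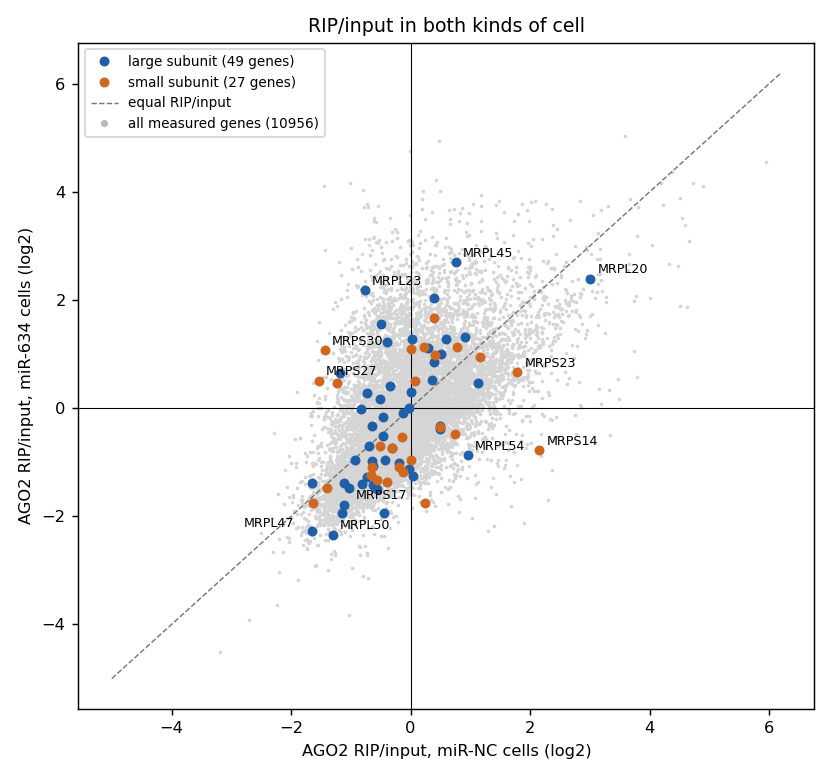
RIP/input of each gene in miR-NC cells (horizontal axis, log2) and in miR-634 cells (vertical axis, log2), with the 76 members colored by subunit symbol over all 10956 measured genes in gray. MRPL20 was high in both kinds of cell, MRPL23, MRPS27 and MRPS30 lay at upper left and MRPS14, MRPL54 and MRPS17 at lower right; under spike-in scaling all points move down and to the left by 1.44 and 2.53.

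The change of RIP/input compares the 2 kinds of cell. The study looked for targets by this measure, with a cutoff of its own that was not used here, together with a fall of protein. The change was called higher for 28 members (28.1% of all genes) and lower for 37 (43.3% of all genes), and 11 were not called. In either direction, 65 of 76 were called, against 71.4% of all genes. More than 2-fold were 13 of the rises (13.2% of all genes) and 10 of the falls (8.32% of all genes). Over all members, 70 of 76 had the same sign of change in array number 1 of each group and in array number 2. The same count was not made over all genes, so it shows no trait of the members. Relative to the median of all genes, which no shift of a whole array alters, 39 members lay above and 37 below.

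**Figure D2:**
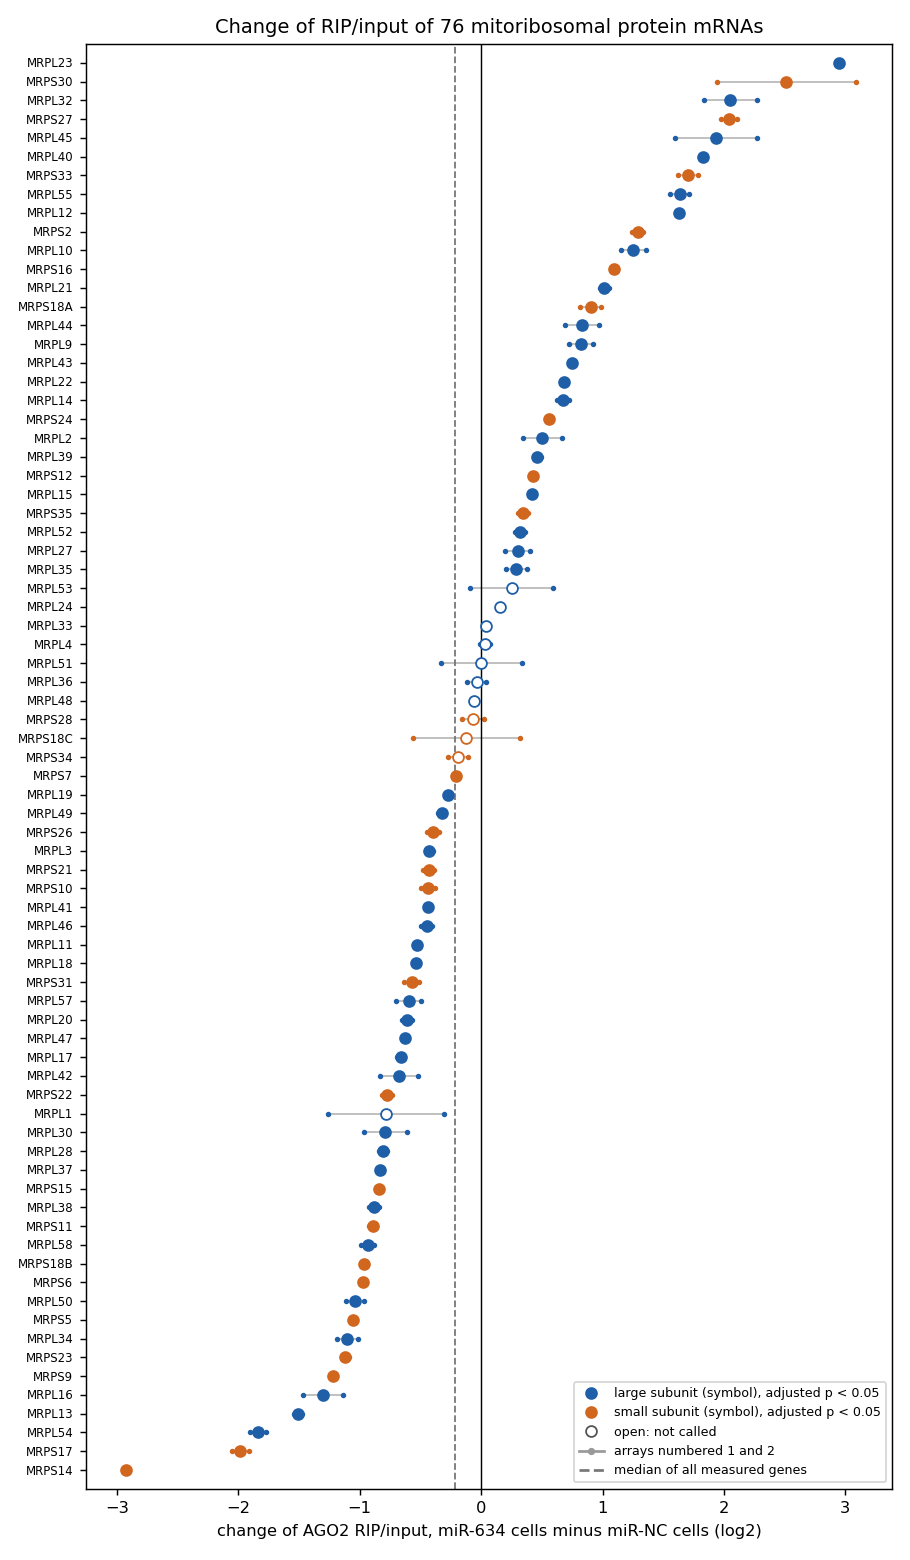
Change of RIP/input (log2, miR-634 cells minus miR-NC cells) of the 76 members in order, with the mean as a large point, filled where called, and the arrays numbered 1 and 2 as small points. The values run from 2.95 for MRPL23 to -2.93 for MRPS14, and of the 37 called falls only the 8 at the foot of the plot that reach down from MRPL34 stayed below 0 under spike-in scaling.

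For 17 members, RIP/input was called on opposite sides of the input in the 2 kinds of cell and the change was called too. MRPS14, MRPS17, MRPL54, MRPS9, MRPL38, MRPS15 and MRPL37 went from above the input to below it, which is 7 of 76 against 6.1% of all genes. MRPL14, MRPL43, MRPL21, MRPL12, MRPS33, MRPL40, MRPS27, MRPL32, MRPS30 and MRPL23 went from below to above, which is 10 of 76 against 8.45% of all genes. These sides hold for the percentile scaling, since spike-in scaling lowers all RIP/input values. Of the other members, 16 were called higher in both kinds of cell (21.3% of all genes) and 32 lower in both (32.9% of all genes).

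The members are next taken by place in the ribosome, and these places were chosen with the values known, so their counts are descriptions to be read against the 28.1% of all genes that rose and the 43.3% that fell. The members described at a place need not be all of its proteins. MRPL53, MRPL54 and MRPL55, for example, were counted at no place of the large subunit. Around the protein exit tunnel of the large subunit, the largest rise was that of MRPL23. Its level on the 2 arrays of each group was 1.70 and 1.68 on miR-NC input, 0.94 and 0.90 on miR-NC RIP, 1.52 and 1.56 on miR-634 input, and 3.73 and 3.71 on miR-634 RIP. The miR-634 RIP arrays stood above all others and the miR-NC RIP arrays below all others, with no overlap. The change was 2.95 ± 0.06 (SE, n = 2 arrays per group, limma adjusted p = 6.26e-07), a 7.72-fold rise of RIP/input.

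MRPL45 at the same site had 0.97 and 1.06 on miR-NC input, 1.46 and 2.09 on miR-NC RIP, 1.13 and 1.22 on miR-634 input, and 3.90 and 3.85 on miR-634 RIP. Its miR-NC RIP arrays differed from each other more than any other pair of the gene, and the change was 1.94 ± 0.26 (SE, limma adjusted p = 0.000714). MRPL22 rose by 0.68, and MRPL24 was not called, at 0.15. MRPL17 and MRPL47 fell by 0.66 and 0.63, and both turned positive under spike-in scaling, to 0.42 and 0.46. The 6 tunnel proteins thus held 3 rises and 2 falls.

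The stalk of the large subunit recruits translation factors. Of its 3 members described, MRPL12 rose by 1.63 and MRPL10, which anchors it, rose by 1.25. MRPL11, at the base, fell by 0.53, a fall that turned to 0.56 under spike-in scaling. The level of MRPL12, which also binds the mitochondrial RNA polymerase, was 1.18 and 1.22 on miR-NC input, 0.76 and 0.83 on miR-NC RIP, 1.06 on both arrays of miR-634 input, and 2.26 and 2.31 on miR-634 RIP. On all arrays, RIP lay below input in miR-NC cells. In miR-634 cells it lay above input on all arrays, with a RIP/input that turned to -0.21 under spike-in scaling. The change was 1.63 ± 0.07 (SE, limma adjusted p = 4.07e-06), and a second probe of MRPL12 gave 1.69.

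Among the other proteins of the large subunit, MRPL32, which must be cut by a mitochondrial protease before it joins the ribosome, changed by 2.05 ± 0.18 (SE, limma adjusted p = 0.000111). MRPL40, a protein of the central protuberance, changed by 1.83 ± 0.06 (SE, limma adjusted p = 1.90e-06). It was the 1 rise among 5 described members of that region, of which MRPL38, MRPL46 and MRPL58 fell by 0.88, 0.45 and 0.94 and turned positive under spike-in scaling. MRPL55, another rise over 2-fold, changed by 1.64.

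The largest falls in the large subunit kept their sign under all scalings. MRPL54, which has no bacterial counterpart, was at -0.51 and -0.61 on miR-NC input, 0.43 and 0.37 on miR-NC RIP, -0.50 and -0.66 on miR-634 input, and -1.46 and -1.45 on miR-634 RIP. By the percentile scaling, its RIP level was the highest of the groups in miR-NC cells and the lowest in miR-634 cells. The change was -1.84 ± 0.10 (SE, limma adjusted p = 1.14e-05). MRPL13 changed by -1.51 and MRPL16, near the site where transfer RNA enters, by -1.30. The miR-NC input arrays of MRPL16 read 1.47 and 1.91, the widest gap between input replicates among the members. MRPL50 fell by 1.04 and MRPL20 by 0.61, and both turned positive under spike-in scaling, to 0.05 and 0.48. MRPL20 was thus called lower for the change while it stayed among the 3 highest members in both kinds of cell.

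In the head of the small subunit, where the ribosome holds transfer RNA, 4 of the 5 described members fell and 1, MRPS24, rose. The 5 leave out the 9 small subunit proteins counted as without a bacterial counterpart, of which 3 rose and 5 fell. MRPS33 and MRPS35 were among those rises and MRPS31 among those falls. The level of MRPS14 was 0.49 and 0.50 on miR-NC input, 2.66 and 2.64 on miR-NC RIP, 0.42 and 0.37 on miR-634 input, and -0.37 and -0.39 on miR-634 RIP. In the RIP of miR-NC cells this mRNA was 4.45-fold above input, a RIP/input of 2.15 that turned to -0.37 under spike-in scaling. In the RIP of miR-634 cells it was at 0.59-fold of the input. The change was -2.93 ± 0.06 (SE, limma adjusted p = 6.26e-07), the largest fall among the members. MRPS9 fell by 1.22. MRPS10 fell by 0.44 and MRPS7 by 0.21, and both turned positive under spike-in scaling, to 0.65 and 0.88. MRPS7 was near the threshold (limma adjusted p = 0.0319) and was not called without any 1 of 7 of the 8 arrays, with values between -0.235 and -0.167, the exception being the miR-NC RIP array numbered 1.

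In the body and platform of the small subunit, 6 of the 9 described members fell, 2 rose and 1 was not called, where 43.3% of all genes fell and 28.1% rose. Neither this set nor that of the head holds MRPS2, which rose by 1.29, or MRPS28, which was not called at -0.07. MRPS17 was at 2.37 and 2.34 on miR-NC input, 2.60 and 2.59 on miR-NC RIP, 2.31 and 2.33 on miR-634 input, and 0.63 and 0.53 on miR-634 RIP. Only the miR-634 RIP arrays stood far from the rest, and the change was -1.98 ± 0.07 (SE, limma adjusted p = 2.25e-06). MRPS15 and MRPS5 fell by 0.84 and 1.05 and turned to 0.24 and 0.03 under spike-in scaling. MRPS16 rose with its brightest probe, and its 2 probes differed by 2.74 on the log2 scale (2.14-fold with the brightest and 14.3-fold with the other).

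Among proteins of the small subunit without a bacterial counterpart, MRPS27, a protein with repeats that bind RNA, rose most. Its level was -0.17 and -0.11 on miR-NC input, -1.69 and -1.67 on miR-NC RIP, -0.08 and -0.21 on miR-634 input, and 0.39 and 0.34 on miR-634 RIP. By the percentile scaling, the RIP arrays of the 2 kinds of cell lay on opposite sides of the inputs. The change was 2.04 ± 0.08 (SE, limma adjusted p = 3.66e-06). MRPS33 rose by 1.71 and MRPS35 by 0.34, and MRPS23 fell by 1.12. MRPS30, which sits in the large subunit despite its symbol, changed by 2.51 ± 0.48 (SE, limma adjusted p = 0.00319). Its miR-NC RIP arrays read -2.90 and -4.08, an SD of 0.84 that was the widest between replicates of any member in any group, and the change was 1.94 by the arrays numbered 1 and 3.09 by those numbered 2.

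MRPS18A, MRPS18B and MRPS18C are paralogs that descend from 1 bacterial protein and occupy different sites. MRPS18A, which lies in the large subunit, rose by 0.90 and MRPS18B fell by 0.97, a fall that turned to 0.12 under spike-in scaling. MRPS18C was not called, at -0.12 ± 0.35 (SE). The value by the arrays numbered 1 was 0.32 and by those numbered 2 was -0.56. It was called lower, at -0.56, without the miR-NC RIP array numbered 1 and higher, at 0.31, without that numbered 2.

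**Figure D3:**
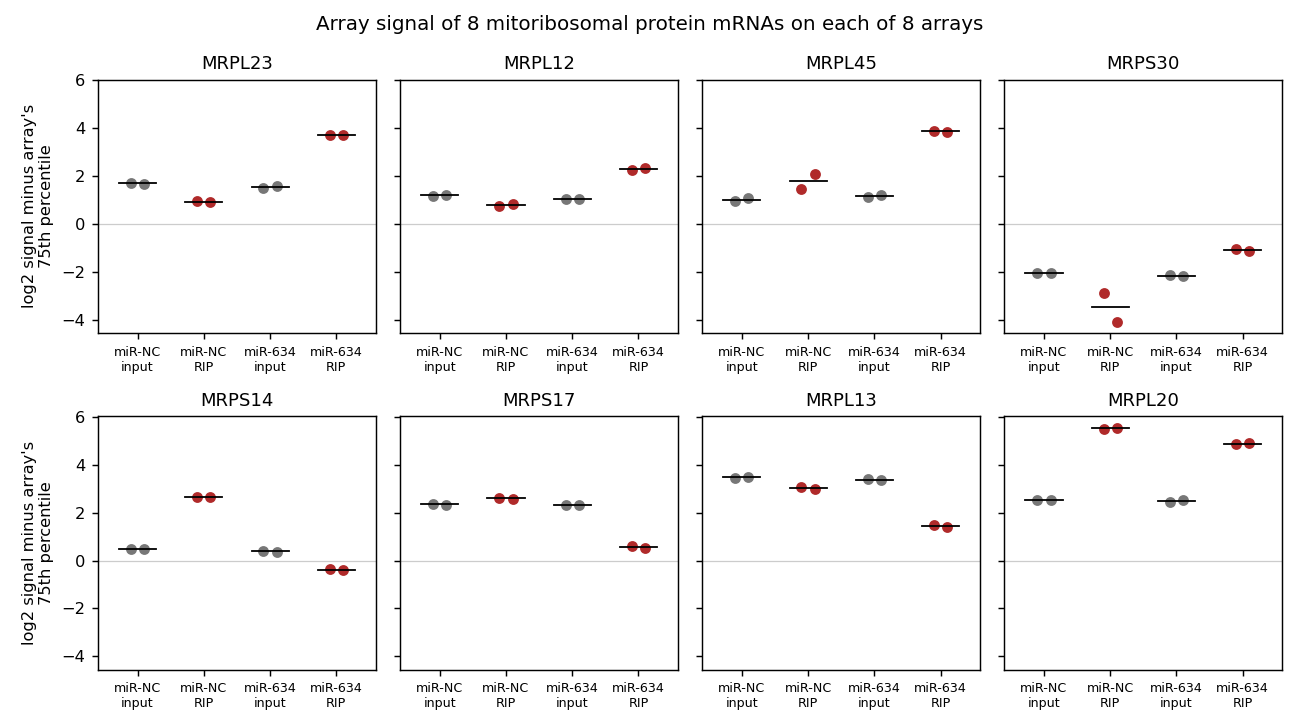
Level (log2 signal minus the array's 75th percentile) of 8 members on each of the 8 arrays, with gray points for input, red points for RIP and a line at the mean of each group of 2; levels are to be read within a gene, since probes differ. The input pairs lay close together in all 8 genes, and the miR-634 RIP arrays were above the miR-NC RIP arrays for MRPL23, MRPL12, MRPL45 and MRPS30 and below them for MRPS14, MRPS17, MRPL13 and MRPL20; for MRPL20 the change turned positive under spike-in scaling.

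The proteomic list of the study names proteins that were lower in miR-634 cells than in miR-NC cells, with no minimum size of fall. It holds 8 members, and the list was chosen for another measure of the same comparison, protein in place of RNA. MRPL12 and MRPS35 rose (28.1% of all genes did), and MRPS23, MRPS15, MRPL17, MRPL47 and MRPS7 fell (43.3% of all genes did). Of these falls, only that of MRPS23 kept its sign under spike-in scaling, at -0.03. MRPS18C was not called. The median change of the 8 was -0.42, against -0.20 over all members and -0.22 over all genes. MRPL12 is also on the list of targets that the study drew in part from these arrays, so its rise is not independent evidence.

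Of the 76 members, 12 had a second probe well above background on all arrays. The sign of the change was the same for both probes in 9, among them MRPS16, whose probes had the widest gap of the 12. It differed in MRPL19 (-0.27 with the brighter probe and 0.36 with the other), in MRPL53 (0.25 and -0.15) and in MRPL9 (0.82 and -0.18). MRPL53 was called higher, at 0.59, when the miR-NC RIP array numbered 1 was left out. Of these, MRPL19 was called lower and MRPL9 higher with the brighter probe, so their direction depends on the probe, and that of MRPL19 also turned to 0.82 under spike-in scaling.

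By the brightest probe, the mRNA levels of the members hardly differed between the inputs. The input change was called higher for 1 member and lower for 3, against 11.7% and 12.1% of all genes, and in all for 4 of 76, against 23.8% of all genes. No member differed by more than 0.33 in size with its brightest probe. The second probe of MRPS16 gave an input change of -0.64 and that of MRPL19 gave -0.40, without a test. The other second probes well above background on all arrays stayed within 0.33. The SD of the input change across members was 0.09, against 0.25 across all genes. An unadjusted p below 0.05 was reached by 15 of 76 members, against 4093 of 10956 genes. MRPS33, at 0.69 and 0.64 on the miR-NC and 0.32 and 0.35 on miR-634 input, had the largest called change, -0.33 ± 0.05 (SE, limma adjusted p = 0.00521). Its call was lost, at the same sign, with the percentile over all probes (adjusted p = 0.0521), with the authors' processed values (0.0506) and with spike-in scaling (0.0562), under which no member was called on the input. MRPL40 changed by -0.20, MRPS35 by -0.18 and MRPS5 by 0.18, and the value of MRPS5 turned to -0.04 under spike-in scaling. MRPL40, MRPS35 and MRPS5 were not called under those 3 scalings either, nor without any 1 of the 4 input arrays, at -0.222 to -0.179 for MRPL40, -0.209 to -0.151 for MRPS35 and 0.157 to 0.198 for MRPS5, and MRPS5 was also not called without either miR-NC RIP array. Fewer copies per cell and fewer cells with the mRNA cannot be told apart in these samples. Of the members, 20 lay above the median of all genes, which was -0.0041, and 56 below it, and the median of the members was -0.04.

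**Figure D4:**
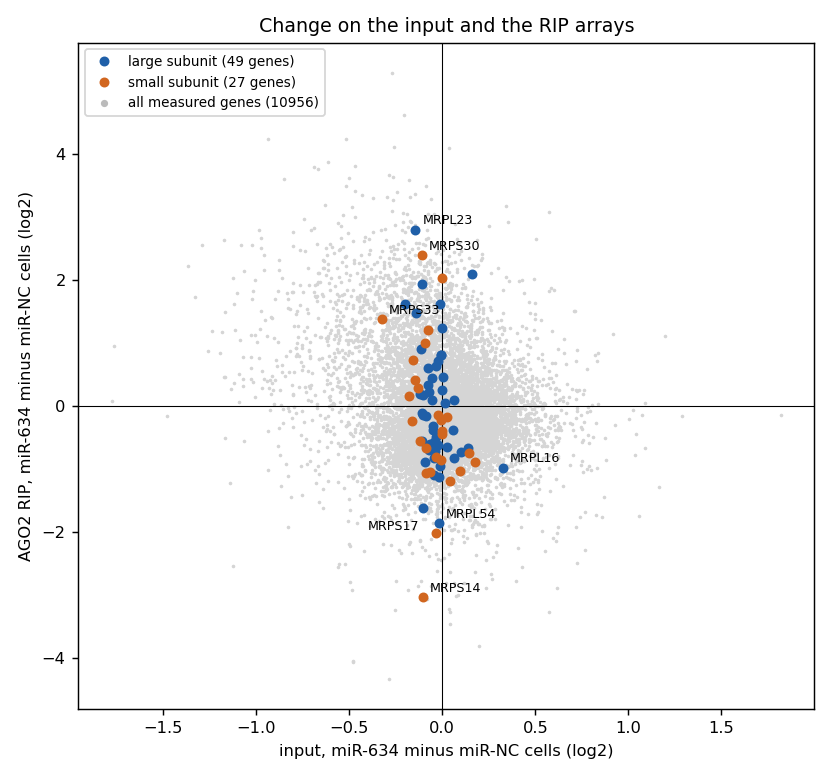
Change on the input arrays (horizontal axis, log2) and on the RIP arrays (vertical axis, log2), each miR-634 cells minus miR-NC cells, with members colored by subunit symbol over all measured genes in gray. The members, by their brightest probe, formed a narrow upright band. It lay within 0.33 of 0 on the input and from -3.03 to 2.80 on the RIP. Under spike-in scaling the band moves up by 0.87 and to the left by 0.22.

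The change on the RIP arrays alone shares no array with the input change. It was called higher for 28 members (30.9% of all genes) and lower for 42 (46.5% of all genes). With spike-in scaling, 28 of the 42 turned positive. The largest rises were MRPL23 at 2.80, MRPS30 at 2.40 and MRPL45 at 2.10, and the largest falls were MRPS14 at -3.03, MRPS17 at -2.02 and MRPL54 at -1.85, and these 6 kept their sign. For 66 of the 76 members the RIP change was called and the input change was not, against 57.5% of all genes. The change on the RIP arrays was larger in size than that on the input arrays for 74 members, which was not counted over all genes. Median sizes were 0.70 on the RIP and 0.07 on the input arrays over members, and 0.52 and 0.14 over all genes.

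Large and small subunit genes differed in their medians, in opposite directions in the 2 kinds of cell. In miR-NC cells, median RIP/input was -0.44 for the 49 large subunit genes and -0.13 for the 27 small subunit genes, with 13 and 10 called higher (33.6% of all genes) and 30 and 13 called lower (45.3% of all genes). In miR-634 cells, the medians were -0.33 and -0.54, with 19 and 11 called higher (36.1% of all genes) and 27 and 16 called lower (48.3% of all genes). The median over genes of the change was -0.04 for the large subunit (19 higher and 22 lower) and -0.39 for the small subunit (9 higher and 15 lower), against -0.22 over all genes, of which 28.1% were called higher and 43.3% lower. The difference between these medians, large minus small, was 0.30 by the arrays numbered 1 and 0.36 by those numbered 2, which no shift of a whole array alters. The genes of each subunit spread over far more than this difference, from -1.84 to 2.95 in the large and from -2.93 to 2.51 in the small subunit. With MRPS30 and MRPS18A moved to the large subunit, where the structures place them, the difference was 0.43 for the change. The same move of 2 genes took the small subunit median in miR-634 cells to -0.70 and the difference there from 0.20 to 0.37, and left that in miR-NC cells at -0.31. On the input, the medians were -0.04 and -0.07. No test over the members was made, since genes are not replicates.

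Within each subunit, the proteins with and without a bacterial counterpart were compared in the same way, by structure. MRPS18A and MRPS18B were counted as without a counterpart, though they share the bacterial origin of MRPS18C. The median change was 0.03 for 30 large subunit proteins with a counterpart and -0.06 for 21 without, and -0.44 for 16 small subunit proteins with a counterpart and -0.39 for 9 without. In the same order, 13 rose and 12 fell of the 30, 8 and 10 of the 21, 4 and 10 of the 16, and 3 and 5 of the 9, against 28.1% and 43.3% of all genes.

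**Figure D5:**
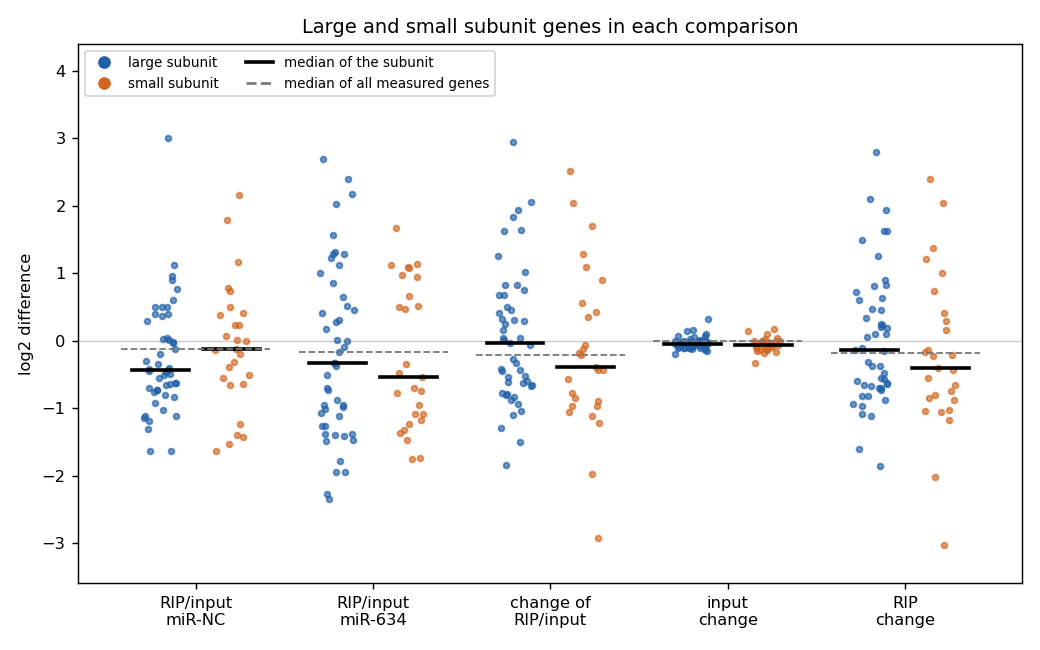
Log2 difference of each large subunit (blue) and small subunit (orange) gene in the 5 comparisons, with a black line at the median of each subunit and a dashed line at that of all measured genes. Large subunit genes had the lower median RIP/input in miR-NC cells (-0.44 against -0.13) and the higher one in miR-634 cells (-0.33 against -0.54), and both overlapped widely; spike-in scaling moves both subunits by the same amount.

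Other genes of mitochondrial translation gave 44 measured of 47 listed, among them proteins of the same ribosome with other symbols, its assembly factors and the translation factors. Their change of RIP/input was called higher for 13 (28.1% of all genes) and lower for 18 (43.3% of all genes), with a median of -0.13. AURKAIP1, a protein of the small subunit, changed by 3.11 and DDX28, a helicase that assembles the large subunit, by 3.03, where the highest member was at 2.95. MALSU1, which keeps the large subunit from joining too early, changed by -2.04 and MTERF4, which also acts in large subunit assembly, by -1.63. On the input, 3 were called higher and 5 lower, in all 8 of 44, against 4 of 76 members and 23.8% of all genes, with no test of the difference.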

How the data were processed

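The authors deposited the intensity of every spot per array, read by Agilent Feature Extraction (version 9.1 per the labels, 12.0.1.1 per the file headers) with local background subtracted and arrays not normalized against each other. They also deposited processed log2 values, which followed the log2 intensity less the 75th percentile of all probes of an array, with each probe centered, and served as an alternative. Here, control and outlier spots were left out, spots of a probe were averaged and the 75th percentile was subtracted after log2. No spot was saturated. Of 33080 probes with a RefSeq accession, 31104 matched 1 symbol in the RefSeq table of GRCh38.p14, whereas the array design is on hg19, so no coordinates of members are given. The brightest probe well above background on all 8 arrays stood for a gene. The test of all genes was limma (version 3.58.1, R 4.3.3; lmFit to the means of the 4 groups, then eBayes), and the code was tested on simulated data. Plots were made with matplotlib 3.10.9.

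Members and lists were chosen with earlier results of these data known. Named by rule were members on the proteomic list, the 5 largest rises and falls of the change of RIP/input, the 3 largest of the input and RIP changes, the 3 highest and lowest by RIP/input in each kind of cell, the MRPS18 paralogs, MRPS30, members whose probes differ in sign, and the 2 largest rises and falls among the other genes of translation. All other members named, and the places in the ribosome, were chosen after their values were seen. Alternatives were 7 scalings, 2 filters, the mean of probes, a fit with an intensity trend, 1 with a replicate block, fits with each array left out and subunits by structure. On the slide, input lay in row 1 and RIP in row 2, and miR-NC and miR-634 lay in separate columns, so position and group cannot be told apart.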

Additional observations from a re-analysis of the deposited data

Results flagged for a closer look

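For 17 members, RIP/input was called on opposite sides of the input in the 2 kinds of cell and the difference itself was called by limma with Benjamini-Hochberg adjustment (n = 2 arrays per group). Of these, 7 went from above to below the input (6.1% of all genes did) and 10 from below to above (8.45% of all genes did). The sides are those of the percentile scaling; with spike-in scaling, RIP/input shifts down in both kinds of cell, as given above. The 7 falls were those of MRPS14 (-2.93), MRPS17 (-1.98), MRPL54 (-1.84), MRPS9 (-1.22), MRPL38 (-0.882), MRPS15 (-0.845) and MRPL37 (-0.83), of which the last 3 turned positive under spike-in scaling. The 10 rises were those of MRPL14 (0.672), MRPL43 (0.751), MRPL21 (1.02), MRPL12 (1.63), MRPS33 (1.71), MRPL40 (1.83), MRPS27 (2.04), MRPL32 (2.05), MRPS30 (2.51) and MRPL23 (2.95). MRPS14 crossed farthest downward, from 2.15 in miR-NC cells to -0.77 in miR-634 cells, and MRPL23 farthest upward, from -0.77 to 2.18. With each array left out in turn, the change of MRPS30 ranged from 1.92 to 3.11.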

How the results depend on the processing

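Without the miR-NC RIP array numbered 2, MRPL53 changed by -0.089 and MRPS18C by 0.314, against 0.593 and -0.56 without number 1. Spike-in scaling moved the counts of members called to 1 higher and 74 lower in miR-NC cells, 4 higher in miR-634 cells, 47 higher and 3 lower for the change and 44 higher and 4 lower on the RIP arrays. Medians over all genes under it were -2.65, -1.61, 0.87 and 0.69 in the same order. Shares of all genes called were not counted for this or the other settings in this paragraph, so these counts describe no trait of the members. Spike-in scaling reversed the change of MRPL17 (0.424), MRPL19 (0.816), MRPL20 (0.478), MRPL47 (0.458), MRPL50 (0.0497), MRPS15 (0.242), MRPS18B (0.122), MRPS18C (0.964), MRPS5 (0.0333) and MRPS7 (0.877), and the input change of MRPS5 (-0.0442). The mean of the probes reversed MRPL19 (0.0444). Input calls (1 higher, 3 lower) came to 0 and 0 with the percentile over all probes, the authors' values and spike-in scaling, to 0 and 5 with median ratio scaling, an alternative added after seeing the data, then to 0 and 1 without a filter, to 0 higher with the filter on input arrays, to 6 lower with the mean of probes and to 2 and 8 with an intensity trend. With each array left out in turn, input calls ranged from 0 to 1 higher and from 1 to 4 lower. The replicate block gave 0 higher input calls and changed no call of a named member for the change. Same-numbered arrays deviated together at correlations from -0.0377 to 0.0839. The highest were those of input with RIP of the same cells, at 0.0739 for miR-NC and 0.0839 for miR-634. Whether the numbers pair the arrays cannot be told from such small values. Large minus small ranged from 0.304 to 0.41 for the change, from 0.159 to 0.256 in miR-634 cells and from -0.35 to -0.257 in miR-NC cells with each array left out. It was 0.434 for the change and 0.374 in miR-634 cells by structure, 0.287 in miR-634 cells without a filter and with the input filter, and -0.282 in miR-NC cells with the mean of probes. Of the 65 called changes, the 28 rises were called the same way under every scaling but spike-in scaling. From 32 to 37 falls were called the same way under each of these scalings taken singly. How many falls were called under all of them was not counted. Of the falls, 3 were called the same way under spike-in scaling.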
